A study of Mus musculus with 10 samples.

Results

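The replication-dependent histone genes are the clustered genes that supply the histone proteins packaging newly copied DNA. They were taken as every protein-coding gene in the deposited table whose symbol begins with Hist1h, Hist2h, Hist3h or Hist4h, which gave 67 of 54987 genes. By class, 6 encode the linker histone H1, 18 encode H2A, 18 encode H2B, 12 encode H3 and 13 encode H4. The Hist1 cluster on chromosome 13 holds 54 of them, the Hist2 cluster on chromosome 3 holds 10, and 2 lie on chromosome 11 and 1 on chromosome 6. Coordinates are those of mm10 and were the same in the GENCODE M21 annotation for all 67 genes, of which 62 have a single exon.

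By the labels, RNA came from the popliteal node, the lymph node behind the knee, of male BALB/c mice aged 6 to 8 weeks. All libraries are labelled day 15. Control mice were given 0.1 ml of saline under the skin of the right hind paw (3 libraries, numbered 15, 16 and 17). AIA mice were given the same volume of complete Freund's adjuvant, killed mycobacteria in oil that provoke an arthritis (4 libraries, 5, 10, 31 and 38). Acu mice were given that adjuvant and acupuncture needling of the leg point ST36, as named in the series title (3 libraries, 4, 6 and 28). A sham acupuncture group that the protocol mentions was not analysed here. The labels describe no transgene, and they do not say whether nodes were pooled.

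Core histones H2A, H2B, H3 and H4 form the spool around which DNA is wound, and H1 binds the linker DNA between spools. The replication-dependent genes are transcribed mainly in S phase, and their mRNA usually ends in a conserved stem-loop instead of a poly(A) tail. SLBP binds this stem-loop and carries the mRNA through processing, translation and decay. Several members, Hist1h1c, Hist1h2bc and Hist2h2be among them, are also known for polyadenylated transcripts that can be made outside S phase. Mki67 encodes the proliferation antigen Ki-67 and was used as the reference for dividing cells, which are frequent in a lymph node after immunisation. The sources used here do not say whether the libraries were selected for poly(A) RNA.

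The histone stem-loop of 16 bases was found in the annotated transcripts of 46 of the 67 members (68.7%), against 53 of 21901 protein-coding genes in all (0.242%). The search used the sense strand of GENCODE M21 transcripts, which carry the reference strain's sequence and not that of BALB/c. The 8 forms found are led by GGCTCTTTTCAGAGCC in 26 members, followed by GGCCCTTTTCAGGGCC in 7 and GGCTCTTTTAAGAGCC in 6. Among the members with most signal, a stem-loop was found in 4 of the 6 highest. These are shown with 5 flanking bases on each side, in DNA letters from 5′ to 3′, with the stem-loop in capitals.
Hist1h1c: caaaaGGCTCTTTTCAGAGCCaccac
Hist1h4h: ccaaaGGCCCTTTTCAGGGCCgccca
Hist1h4i: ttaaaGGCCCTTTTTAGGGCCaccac
Hist3h2ba: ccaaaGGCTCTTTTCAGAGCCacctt
The annotated transcript of Hist1h1c runs on for 840 bases after the stem-loop, that of Hist1h4i for 330, that of Hist3h2ba for 169 and that of Hist1h4h for 46. No stem-loop was found in the annotated transcript of Hist1h2bc or of Hist2h2be, the other 2 of the 6, which says only that those letters are not in that transcript.

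Depth was 13269763 to 18926894 reads per library, recovered from the deposited FPKM (fragments scaled by gene length and a factor per library), and 937 to 5529 of these fell in the 67 members. The FPKM of all genes summed to 342973 (Acu 6) to 676447 (AIA 10) per library, so sums of FPKM are not shares of a common total. Several libraries stood apart in their cell type markers, given as the mean log2(FPKM + 1) of each marker list. The B cell list (11 genes) lay between 0.48 and 0.72 in the libraries labelled Control 15, Control 17 and Acu 4 and between 5.93 and 6.76 in the other 7, and the T cell list (13 genes) split the same way, at 0.51 to 0.61 against 4.32 to 5.03. The pan-B gene Cd79a was at 2.09, 0.63 and 0.52 FPKM in those 3 libraries and at 218 or more in the rest, so the labelled tissue was not borne out by its markers there. The decidua list was highest in Control 17 (7.598) and Acu 4 (6.07), at most 1.59 elsewhere. In these libraries the trophoblast list was at 1.82 and 5.46, and it was at most 0.23 elsewhere. Decidua and trophoblast are tissues of pregnancy, so the label of a male node was not borne out in Control 17 and Acu 4. The adipocyte list was highest in Control 15 (9.34) and Control 16 (7.36), at most 3.44 elsewhere. AIA 10 had 15116 genes above 0 against 21224 to 24411 in the other libraries, and the mitochondrial gene mt-Co1 was at 231 FPKM in it against 4511 or more. Results are therefore given with all 10 libraries and again without Control 17 and Acu 4. Where named, Control 15 or AIA 10 was left out as well.

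Most members gave little signal. The median of the members' mean FPKM was 0.258, against 1.69 over 22058 protein-coding genes, and 14 members (20.9%) reached a mean of 1 FPKM against 55.0% of protein-coding genes. Reads summed over the 10 libraries had a median of 41 per member and were at most 100 for 50 members. A total of 13 members were above 0 in every library and 10 were listed at 0 in every library. For these 10, a count of 3 reads, the limit that a count of 0 allows, would correspond to 0.0811 to 0.695 FPKM depending on the gene and library, which covers counting error only.

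**Figure D1:**
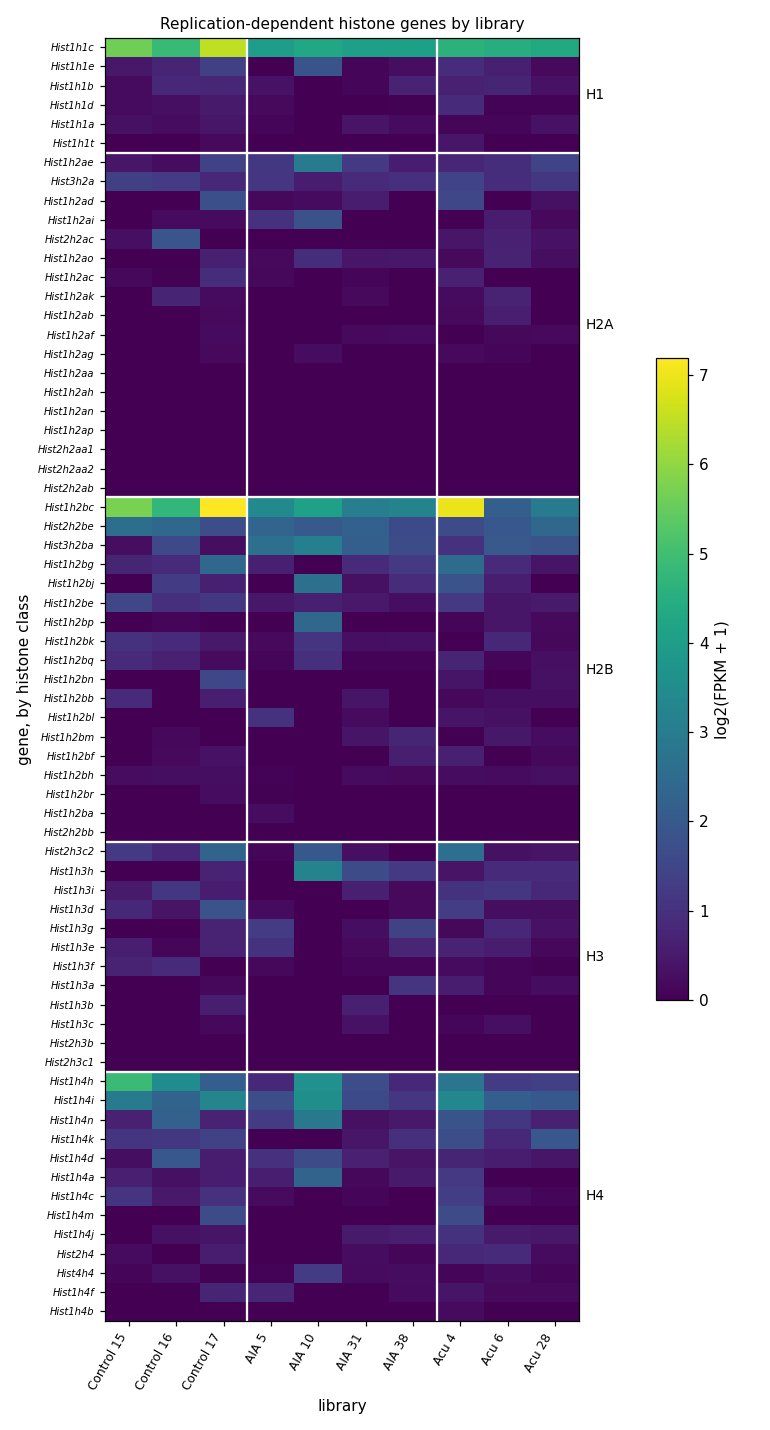
Levels of the 67 histone genes as log2(FPKM + 1), with genes in rows by histone class and the 10 libraries in columns by group (white lines divide classes and groups). Hist1h1c and Hist1h2bc are the brightest genes, 13 genes are above 0 in every library, and 10 are at 0 throughout.

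Signal varied with the annotated end of the transcript. Members whose transcript runs on for more than 100 bases after the stem-loop (23 genes) had a median of the mean FPKM of 0.581, and 7 of them reached 1 FPKM. Members whose transcript ends within 100 bases of it (23 genes) had a median of 0.209, with 3 at 1 FPKM or more, and the 21 members without a stem-loop had a median of 0.175, with 4. A poly(A) signal (AATAAA or ATTAAA, sense strand) lay in the last 40 bases of 17 members, whose median was 0.754, against 0.199 in the other 50. These are descriptions of annotated ends, with 7 genes at 1 FPKM or more on each side of the poly(A) split. Hist1h2bc, the member of highest mean FPKM, is among the 21 without a stem-loop and the 50 without a poly(A) signal.

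Sequence shared with other genes also differed between members with and without any reads. The share of 100-base transcript windows that also occur in the transcript of another gene had a median of 96.1% in the 10 members listed at 0 (range 10.3% to 100%), and 9 of these 10 shared more than 50%. In the 57 members above 0 the median was 31.8% (range 0% to 94.8%), and 19 shared more than 50%. The 14 members with a mean of 1 FPKM or more had a median of 34.6% (range 0% to 92.0%), and 4 shared more than 50%. Among members with reads, the share was thus no lower in those with more signal. Hist1h2aa, the exception among the 10, is a testis-expressed gene. The sources used here do not say how reads that match several genes were counted, so the levels of members with much shared sequence are uncertain. Of the 6 highest members, Hist2h2be shared no window, Hist3h2ba 4.85%, Hist1h1c 5.07%, Hist1h4i 15.1%, Hist1h2bc 25.4% and Hist1h4h 38.5%.

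**Figure D2:**
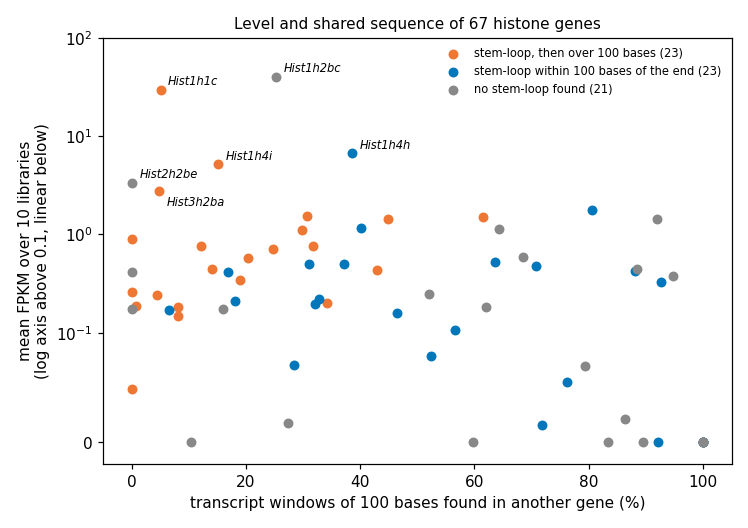
Mean FPKM over 10 libraries (vertical, log scale above 0.1 and linear below) against the percent of 100-base transcript windows found in another gene (horizontal) for the 67 members, coloured by the annotated transcript end. Members at 0 lie mostly at the right, and the 6 highest members share at most 38.5% of their windows.

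Summed histone signal did not follow Mki67 across the groups. The summed FPKM of the 67 members was 158, 98.6 and 287 in Control 15, 16 and 17, it was 50.8, 119, 47.3 and 46.0 in AIA 5, 10, 31 and 38, and it was 207, 53.9 and 52.0 in Acu 4, 6 and 28. Mki67, in the same order, was at 1.85, 5.96 and 4.27 FPKM in Control, at 59.4, 34.4, 55.8 and 59.5 in AIA, and at 3.20, 42.6 and 26.9 in Acu. The libraries with most histone signal were thus among those with least Mki67, and the sum per unit of Mki67 ran from 16.5 to 85.6 in Control, from 0.774 to 3.46 in AIA and from 1.26 to 64.8 in Acu. In bulk RNA, fewer cells of a type and less RNA per cell cannot be told apart. The markers given above differ between the same libraries, and their part in these levels was not tested.

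**Figure D3:**
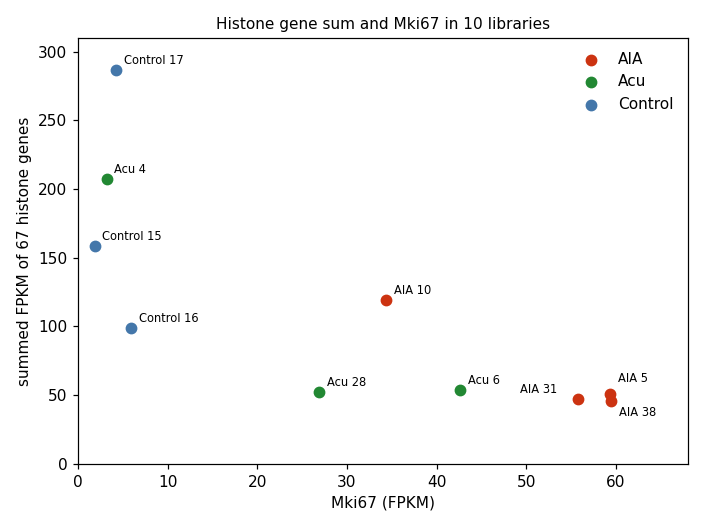
Summed FPKM of the 67 histone genes (vertical) against Mki67 FPKM (horizontal), with 1 point for each of the 10 libraries coloured by group. The 4 libraries with Mki67 under 10 FPKM have sums of 98.6 to 287, and 5 of the 6 with more Mki67 have sums of 46.0 to 53.9; AIA 10 is the exception at 119.

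Hist1h2bc and Hist1h1c together made up 54.7% to 81.8% of the sum in Control, 29.2% to 53.4% in AIA and 45.9% to 71.1% in Acu. Without them the sum was 51.4 ± 6.35 (SD, n = 3) in Control, 39.0 ± 30.3 (SD, n = 4) in AIA and 38.3 ± 18.8 (SD, n = 3) in Acu, so that the groups differed by less than the spread within AIA. The 3 AIA libraries other than AIA 10 were at 21.4 to 25.9, under every Control library (44.7 to 57.3). By class, the H1 sum was 57.2 ± 32.5, 17.4 ± 2.55 and 23.0 ± 2.85 in Control, AIA and Acu, and the H2B sum was 86.1 ± 62.7, 23.8 ± 10.5 and 55.7 ± 71.3. The H4 sum was 27.6 ± 10.7, 13.7 ± 15.2 and 15.4 ± 10.9. The H2A sum averaged near 5 FPKM in each group (4.85 ± 2.41, 5.03 ± 4.01 and 4.91 ± 0.887), as did the H3 sum (5.53 ± 3.60, 5.87 ± 3.75 and 5.39 ± 3.53, SD, with n = 3, 4 and 3 throughout). Single libraries raised these means. AIA 10 was at 10.9 for H2A and 11.3 for H3, against 2.03 to 3.88 and 2.81 to 5.14 in the other AIA libraries. For H3, Control 17 was at 9.68 against 3.23 and 3.67 in Control 16 and 15. Acu 4 was at 9.38 against 4.10 and 2.70 in Acu 6 and 28.

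Among the linker histones, Hist1h1c (chromosome 13, 23738808 to 23740367, plus strand, mm10) encodes H1.2. Its FPKM was 48.2, 27.6 and 89.8 in Control 15, 16 and 17, 15.03, 18.5, 15.6 and 16.03 in AIA 5, 10, 31 and 38, and 23.4, 21.2 and 19.7 in Acu 4, 6 and 28. Every Control library was above every other library, and every Acu library was above every AIA library. Over all genes tested, groups were apart in the same direction for 13.8% (AIA against Control), 4.27% (Acu against Control) and 6.06% (Acu against AIA). The next H1 genes were far lower per length: Hist1h1e averaged 0.712 FPKM and Hist1h1b 0.416 over the 10 libraries. Hist1h1t, the testis H1, was at 0.143 FPKM in Control 17 and 0.344 in Acu 4 and listed at 0 in the other 8.

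The highest member per length was Hist1h2bc (chromosome 13, 23684199 to 23692908, plus strand), an H2B gene with 2 annotated exons and a transcript of 1156 bases, 250 bases from its neighbour Hist1h2ac. It was at 52.9, 26.3 and 145 FPKM in Control 15, 16 and 17, at 9.91, 16.3, 7.40 and 8.55 in AIA 5, 10, 31 and 38, and at 124, 3.54 and 6.59 in Acu 4, 6 and 28. The highest values were those of Control 17 and Acu 4, and Acu 4 lay above 2 of the 3 Control libraries while the other Acu libraries lay below every AIA library. Hist2h2be (chromosome 3, 96221119 to 96223738, plus strand), an H2B gene known for a polyadenylated form, varied little: 4.99, 4.30 and 2.24 in Control, 4.03, 2.997, 3.65 and 2.09 in AIA, and 2.13, 2.88 and 4.30 in Acu, with groups that overlap. Without Control 17 and Acu 4, it was lower in AIA than in Control without overlap, as were 20.8% of all genes tested. Acu 28 was then just under Control 16 (4.297 against 4.298).

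Hist3h2ba (chromosome 11, 58948920 to 58949533, plus strand), an H2B gene of the small Hist3 cluster, ran the other way. Its FPKM was 0.198, 2.003 and 0.212 in Control 15, 16 and 17, 5.33, 7.61, 3.48 and 2.11 in AIA 5, 10, 31 and 38, and 1.02, 3.05 and 2.596 in Acu 4, 6 and 28. All 4 AIA libraries were above all 3 Control libraries, but the gap between AIA 38 and Control 16 was small. Those 2 low Control values and the low Acu value belong to the 3 libraries without B and T cell markers, and rest on 2, 2 and 10 reads. The testis-expressed H2B gene Hist1h2ba had a single read, in AIA 5.

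The H2A genes were low throughout. Hist1h2ae averaged 1.54 FPKM, Hist3h2a 1.12 and Hist1h2ad 0.528. Hist1h2ae was at 0.346, 0.184 and 1.67 FPKM in Control, at 1.26, 6.77, 1.28 and 0.501 in AIA and at 0.714, 0.911 and 1.77 in Acu, with AIA 10 far above the rest. Hist3h2a lay between 0.452 and 1.73 in all 10 libraries, without separation of the groups. Without Control 17 and Acu 4, it was lower in AIA and in Acu than in Control without overlap. The same held for 20.8% (AIA) and 28.6% (Acu) of all genes tested.

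The H3 genes likewise gave few reads. Hist2h3c2 was at 1.31, 0.761 and 4.02 FPKM in Control, at 0.0668, 2.94, 0.221 and 0 in AIA, and at 5.11, 0.242 and 0.293 in Acu. Its highest values were in Acu 4, Control 17 and AIA 10. Hist1h3h was listed at 0 in Control 15, Control 16 and AIA 5, at 0.634 in Control 17, at 8.37, 2.19 and 1.29 in AIA 10, 31 and 38, and at 0.306, 0.840 and 0.848 in Acu. This gene shares 92.0% of its windows with other genes, so its level is uncertain.

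Of the H4 genes, Hist1h4h (chromosome 13, 23531050 to 23531519, plus strand) was the highest. Its FPKM was 29.1, 10.2 and 3.46 in Control 15, 16 and 17, 0.725, 11.4, 2.28 and 0.751 in AIA 5, 10, 31 and 38, and 6.01, 1.36 and 1.59 in Acu 4, 6 and 28. The groups overlapped through AIA 10 and Control 17. Hist1h4i (chromosome 13, 22040636 to 22041362, minus strand) was at 6.78, 3.92 and 8.69 in Control, at 2.25, 11.04, 2.09 and 1.21 in AIA and at 9.16, 3.46 and 2.95 in Acu, again with AIA 10 above the other AIA libraries. Hist1h4n averaged 1.79 FPKM and shares 80.7% of its windows.

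**Figure D4:**
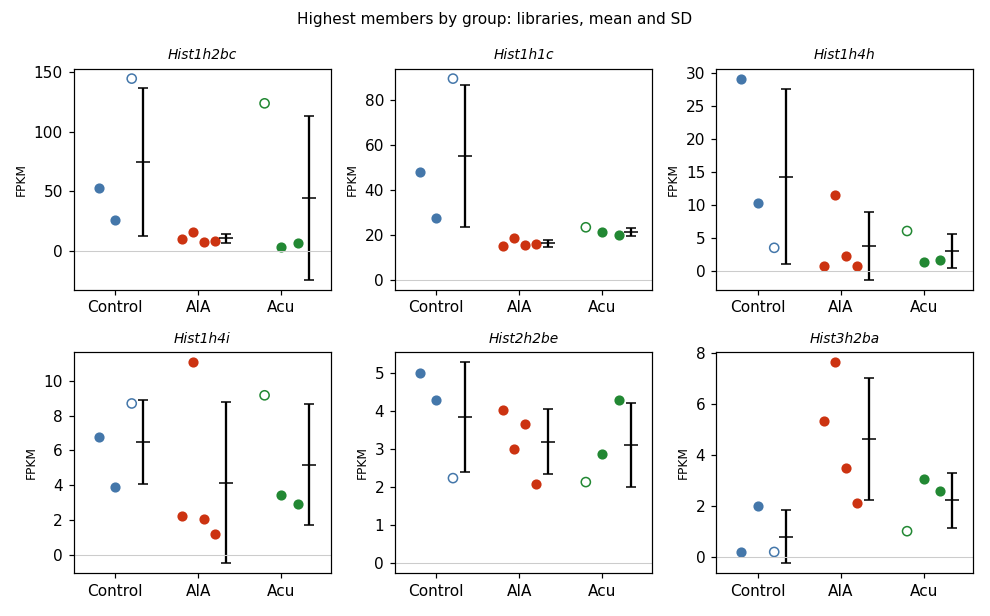
FPKM of the 6 members of highest mean, with 1 panel per gene, groups on the horizontal axis, a point for each library (open for Control 17 and Acu 4) and the group mean with SD as a bar. Hist1h2bc and Hist1h1c are highest in Control, Hist3h2ba is highest in AIA, and Hist2h2be overlaps across the groups.

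The comparison of AIA with Control asks what adjuvant changed in the draining node. With all 10 libraries, none of the 28 members that passed the filter on low values (a level of 0.5 FPKM or more in 3 or more libraries) was called by limma at an adjusted p under 0.05, against 4 of 17030 genes (0.0235%). The other 39 members, 29 of which had reads, were below the filter. At an unadjusted p under 0.05, 1 member was higher (Hist3h2ba) and 6 were lower in AIA (Hist1h1c, Hist1h2bc, Hist1h2be, Hist1h3d, Hist1h4c and Hist1h4k), 25.0% of the 28 against 25.0% of all genes tested. The same 7 members had groups that did not overlap, against 25.2% of all genes tested. These shares are near the background and are no result about the members as a group. The median log2 fold change of the 28 was -0.28, beside -0.07 over all genes tested.

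Log2 fold changes are of FPKM + 1 and understate the change of low genes. Hist1h1c had a log2 fold change of -1.55 (SE 0.37, adjusted p = 0.0726), and Hist1h2bc had -2.43 (SE 1.02, adjusted p = 0.180). With FPKM scaled to the same total in each library, Hist1h1c was called lower (-1.94, adjusted p = 0.0430), 1 of 42 members tested, against 2.07% of all genes. Hist3h2ba stood higher in AIA by 1.69 (SE 0.47, adjusted p = 0.0934) and Hist1h3h by 1.29 (SE 0.62, adjusted p = 0.222). For Hist1h4h the value was -1.78 (SE 0.83, adjusted p = 0.212), for Hist1h4i -0.83, for Hist2h2be -0.18 and for Hist1h2ae 0.78. Mki67 itself stood 3.47 higher (SE 0.71) and missed the threshold at an adjusted p of 0.0640. Hist1h2be overlaps Hist1h1e on the same strand, so reads of the pair may not be separable.

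Without Control 17 and Acu 4, 2 of 23 members fell (8.70%) and none rose, against 9.2% of 16030 genes called lower and 4.29% called higher. The share that fell is near the background and is no result about the members as a group. Hist1h2bc fell by 1.80 on the log2 scale (SE 0.42, adjusted p = 0.0291) and Hist1h1c by 1.13 (SE 0.31, adjusted p = 0.0468), while Mki67 rose by 3.53 (adjusted p = 0.00334). Hist1h4h was at -2.46 (adjusted p = 0.0755) and Hist3h2ba at 1.45 (adjusted p = 0.0860). At an unadjusted p under 0.05 Hist3h2ba was the single higher member (4.35%, against 12.8% of all genes tested). The calls of both genes ended when Control 15 was left out as well: Hist1h2bc was then at -1.34 (adjusted p = 0.234) and Hist1h1c at -0.77 (adjusted p = 0.265), with Control 16 as the lone Control library, assumed to vary like the other groups, and 3.09% of 15622 genes called. In that fit Mki67 remained higher by 2.86 (adjusted p = 0.0327). Other marker lists separated the same libraries. In Control 15 and Control 16 the adipocyte list was at 9.34 and 7.36, against 1.63 to 3.42 in AIA, the skeletal muscle list at 6.01 and 7.68, against 0.81 to 5.28, and the plasma cell list at 1.80 and 2.27, against 5.45 to 5.61. The B and T cell lists were low in Control 15, as given above. The part of these cell types in the fall of Hist1h1c and Hist1h2bc was not tested.

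**Figure D5:**
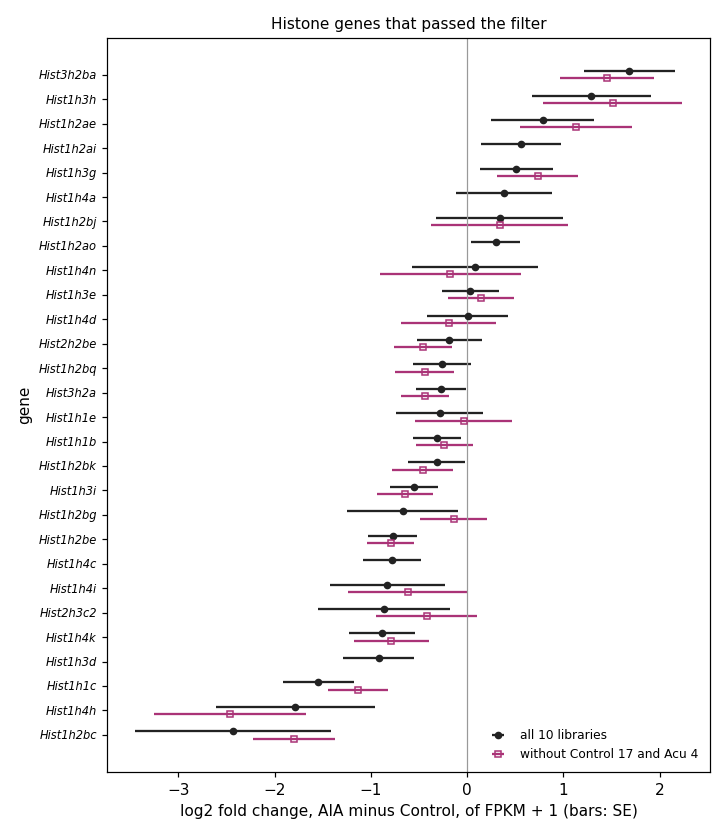
Log2 fold change of FPKM + 1, AIA minus Control (horizontal, bars are SE), for the 28 members that passed the filter, with all 10 libraries (filled circles) and without Control 17 and Acu 4 (open squares, 23 members). Hist1h2bc, Hist1h4h and Hist1h1c are lowest and Hist3h2ba and Hist1h3h highest in the fit of all 10 libraries.

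Genes that work with the histones were read from lists of their own, all without a call in the fit of all 10 libraries and compared here without Control 17 and Acu 4. Of 20 tested genes for making and processing histone mRNA, 2 rose in AIA (against 4.29% of all genes called higher in that fit), with a median log2 fold change of 0.29 beside -0.01 over all genes. They were Ccne1, the cyclin that starts S phase (1.14, adjusted p = 0.0328), and Eri1, an exonuclease that trims histone mRNA ends (1.32, adjusted p = 0.0376). Slbp, the stem-loop binding protein, was at 4.08, 5.13 and 5.64 FPKM in Control, at 9.95, 4.43, 10.2 and 12.5 in AIA, and at 3.91, 10.2 and 8.29 in Acu. AIA 10 was the AIA library within the Control range, and its log2 fold change of 0.79 was not called (adjusted p = 0.211). Cpsf2 and Cpsf3, which encode subunits of the complex that cuts histone mRNA, were at 5.45 to 8.69 and 6.81 to 12.3 FPKM in Control and at 9.17 to 16.5 and 15.3 to 23.3 in AIA, without overlap and without a call. From each list, the 4 genes of smallest p in AIA minus Control with all 10 libraries were named. Their separation thus follows in part from that choice. With all 10 libraries, 25.2% of all genes tested had groups that did not overlap.

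Of 22 histone chaperones, which carry histones to DNA, 3 rose in AIA (13.6%, against the same 4.29%), with a list median of 0.61. Nasp, a carrier of H3 and H4, rose by 1.38 (adjusted p = 0.0277), Mcm2, a helicase subunit that binds H3 and H4 and is also in the S phase list, by 1.91 (adjusted p = 0.0243), and Asf1b, an H3 and H4 chaperone of dividing cells, by 1.96 (adjusted p = 0.0271). Hat1, which acetylates new H4, was at 5.27 to 8.57 FPKM in Control and 11.4 to 47.7 in AIA. Nap1l1, a carrier of H2A and H2B, was at 21.1 to 25.6 in Control and 42.9 to 143 in AIA. Both were without overlap and without a call, and both were named for a small p in this comparison. Among 11 genes listed as replication-independent histones, whose mRNA is usually polyadenylated, 3 rose (27.3%, against 4.29%) and 1 fell (9.09%, against 9.2%). The list median was 0.83. H2afx, the histone phosphorylated at DNA breaks, was at 13.9, 19.4 and 25.2 FPKM in Control, at 43.8, 80.2, 52.0 and 68.2 in AIA, and at 26.2, 55.7 and 52.3 in Acu, and it rose by 1.78 (adjusted p = 0.0158). H2afy, which encodes macroH2A, rose by 1.29 (adjusted p = 0.0346), and Cenpa, the centromeric H3, by 1.89 (adjusted p = 0.0396). H1fx, a linker histone, fell by 1.93 (adjusted p = 0.0184). Its FPKM was 11.6 and 4.09 in Control 15 and 16 and between 0.870 and 1.46 in AIA. H2afz was at 21.03 to 38.7 FPKM in Control and 48.9 to 102 in AIA, without overlap, and was not called (1.37, adjusted p = 0.0567). H3f3b, which encodes H3.3, had groups that overlap (0.88, adjusted p = 0.136), as did H1f0, the linker histone H1.0 (40.5 to 78.8 FPKM in Control and 30.9 to 92.1 in AIA).

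For comparison, 15 of 22 S phase genes (68.2%, list median 1.58) and 18 of 19 G2 and M phase genes (94.7%, list median 2.35, Mki67 among them) rose in AIA without those 2 libraries, against 4.29% of all genes, and none fell. The median of the 23 histone members in the same fit was -0.42, beside -0.01 over all genes tested, and 6 of the 23 stood higher. With Control 15 left out as well, no gene of the processing, chaperone or replication-independent lists was called, and 1 S phase gene and 5 G2 and M phase genes were. The S phase and G2 and M phase genes cover dividing cells of any type, and no test of the difference between these lists and the histone members was made.

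Acupuncture was compared with AIA to ask whether it altered the state of the inflamed node. None of the 28 members was called, in a comparison with 0 of 17030 genes called (0.0%), and none was called in any of the 22 other settings run. At an unadjusted p under 0.05, 2 members were higher in Acu, Hist1h3i and Hist1h4k, which is 7.14% of the 28 against 2.38% of all genes tested in that direction. Hist1h3i was at 0, 0, 0.548 and 0.143 FPKM in AIA 5, 10, 31 and 38 and at 1.07, 1.20 and 0.727 in Acu 4, 6 and 28, which is 0 to 4 reads against 6 to 10. Its log2 fold change was 0.79 (SE 0.25, adjusted p = 0.746). Hist1h1c was higher in every Acu library than in every AIA library but by little (0.38, SE 0.37, adjusted p = 0.765). Such a separation held for 3 of 28 members (10.7%), Hist1h1c, Hist1h3d and Hist1h3i, against 6.06% of all genes tested. Hist1h2bc stood higher by 0.55 (SE 1.02, adjusted p = 0.862), and was at -0.91 without Acu 4 and Control 17 (SE 0.42, adjusted p = 0.984), so its direction rested on Acu 4. Hist3h2ba was at -0.77 (adjusted p = 0.746). Mki67 was at -1.60 (SE 0.71, adjusted p = 0.746) and at -0.57 without those 2 libraries. These 2 comparisons share the AIA libraries.

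The comparison of Acu with Control, which shares its libraries with the others, gave no call among the 28 members and 0 of 17030 genes (0.0%). At an unadjusted p under 0.05 a single member, Hist1h1c, was lower in Acu (log2 fold change -1.17, SE 0.40, adjusted p = 0.638), 3.57% of the 28 against 4.21% of all genes tested. Hist1h2bc was at -1.88 (adjusted p = 0.713), Hist1h4h at -1.71 (adjusted p = 0.694) and Hist3h2ba at 0.92 (adjusted p = 0.710). Without Control 17 and Acu 4, with 2 libraries left in each group, Hist1h2bc fell by 2.71 (SE 0.49, adjusted p = 0.0251), the single call among 23 members, against 3.57% of 16030 genes called lower and 4.47% called in either direction. That call too ended without Control 15 (-2.25, adjusted p = 0.144), where 0 of 15622 genes were called (0.0%).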

How the data were processed

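Per the labels' protocols, RNA was taken up in Trizol and sequenced from NEBNext Ultra libraries. Per the submitters' processing notes, DESeq2 1.16.1, featureCounts 1.5.0-p3, StringTie 1.3.3b, HISAT2 2.0.5 and the build mm10 were used, with no order stated. The sources used here give no strandedness, so antisense and overlapping genes are uncertain. The authors deposited FPKM for each gene and library. FPKM times gene length divided evenly by a step of its library in 100% of values above 0 (tolerance 0.01 of a step), which gave back reads, and 0 value columns could not be mapped to a library.

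FPKM were scaled by the median of ratios, which divided every library by the same factor of 0.996. Genes at 0.5 FPKM or more in at least 3 libraries were tested on log2(FPKM + 1) by limma 3.58.1 in R 4.3.3, with all 10 libraries in a single fit, a mean-variance trend and Benjamini-Hochberg adjustment over all genes tested (threshold 0.05). The fit was tested on simulated data. SE is limma's moderated standard error, and SD is the spread between libraries. Separate mice are not stated for each library, so the p-values reflect differences among these libraries, which may be technical. The members and gene lists were chosen with earlier results of these data known.

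The genes named are the 3 members of highest mean FPKM in each class. Members past the threshold with all libraries or without Control 17 and Acu 4 are named too. So are the testis-expressed members, those known for polyadenylated transcripts, Mki67, Slbp, H2afz, H3f3b and H1f0. Each pathway list adds its 4 genes of smallest p in AIA minus Control with all 10 libraries. Asf1b, H1fx, Hist1h2be, Hist1h3d, Hist1h4c and Hist1h4k were named after their values were seen. Stem-loops, poly(A) signals and shared windows of 100 bases were found in GENCODE M21 transcripts (GRCm38, the assembly of mm10). Tables and plots were made with pandas 2.3.3, matplotlib 3.10.9, numpy 2.4.6 and scipy 1.17.1 in Python 3.11.15. Other pseudocounts, filters, scalings, array weights, limma-voom on the recovered reads and left-out libraries were tried. The fit without Control 17, Acu 4 and AIA 10 was added after seeing the data.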

Additional observations from a re-analysis of the deposited data

Results flagged for a closer look

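Of 19 groups of 4 libraries tested for a library far from the rest (by the gap to the nearest library as a share of the range), 9 had one. For values with a normal spread, chance gives about 1 in 20. That rate does not hold for members with few reads, such as Hist1h2ba, where 1 read alone sets the result. The 19 groups are measures of the same 4 AIA libraries and are not independent. AIA 10 accounts for 8 of the 9. Its histone sum was 119 FPKM against 46.0 to 50.8 in the other AIA libraries, its sum per Mki67 was 3.46 against 0.774 to 0.856, and its Mki67 was 34.4 FPKM against 55.8 to 59.5. As a share of all FPKM in the library, the histone sum was 0.0176% in AIA 10 against 0.00892% to 0.00996% in the other AIA libraries. The members far higher in it were Hist1h1e (2.65 FPKM against 0 to 0.213), Hist1h2ae (6.77 against 0.501 to 1.28), Hist2h3c2 (2.94 against 0 to 0.221), Hist1h4h (11.4 against 0.725 to 2.28) and Hist1h4i (11.04 against 1.21 to 2.25). AIA 10 also had the fewest members above 0, at 24 of 67, against 34 to 42 in the other AIA libraries. Over all genes, 15116 were above 0 in AIA 10 against 21224 to 23081 in the other AIA libraries, so the lower count was not particular to the members. In AIA 5, Hist1h2ba was at 0.178 FPKM, which is 1 read, against 0 in the others.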

How the results depend on the processing

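No paired analysis was possible because the groups share no replicate number. Shallow counts limit most members, 39 of which fell below the filter. In AIA minus Control, 0 members were called with both other pseudocounts, no filter or a filter of 1 FPKM. The 2 groups alone and voom on recovered reads also gave 0. So did the FPKM as deposited, but these differ from the values of the main fit only by the same factor in every library. That fit nearly repeats the main fit and is no separate check. The count was 1 with FPKM scaled to 1e+06 per library, which moved the median of all genes from -0.07 to -0.36 (Hist1h1c, lower; 1 of 42 members, against 2.07% of all genes), and 6 of 28 with array weights (1 higher, 5 lower; 19.5% of all genes were called). It was 2 without Control 17 and Acu 4 and 4 without Control 17, Acu 4 and AIA 10, where 21.5% of all genes were called. Leaving out each library in turn gave 0 to 3 calls, the 3 of 26 (11.5%) being Hist1h1c, Hist1h2bc and Hist3h2ba without Acu 4, where 10.3% of all genes were called. In Acu minus Control the count was 3 with array weights (10.7% of members, 12.2% of all genes), 1 without Control 17 and Acu 4 (4.35% and 4.47%) and 2 without these and AIA 10 (11.1% and 13.1%), each share of members below that of all genes. Hist1h2bc in Acu minus AIA turned from 0.55 to -0.58 with array weights, to -0.91 without Acu 4, without Control 17 and Acu 4 and without Control 15 as well, and to -0.72 without Control 17, Acu 4 and AIA 10; leaving out each library in turn gave -0.91 to 1.47. Scaled to 1e+06, the group means of the histone sum were 430 in Control, 114 in AIA and 263 in Acu. Without the 3 highest members the mean sum was 37.1 in Control, 35.2 in AIA and 35.3 in Acu. By library it was 28.2 to 48.7 in Control, 72.9 in AIA 10 and 20.7 to 25.2 in the other AIA libraries. It was 53.9 in Acu 4 and 24.1 to 27.8 in the other Acu libraries. The Control sum per Mki67 was then 10.8. With all members and Control 16 alone, the sum per Mki67 was 16.5. Where no library or construction is named, the cause was not tested.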

Other observations

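The processed pseudogene Hist1h2al (chromosome 13, 51202727 to 51203065, minus strand, mm10), which the protein-coding rule left out, had a higher FPKM than most members. It was at 86.3 and 39.1 FPKM in Control 15 and 16 and listed at 0 in Control 17. In AIA 5, 10, 31 and 38 it was at 30.97, 50.5, 18.1 and 17.9, and in Acu 4, 6 and 28 at 0, 10.6 and 16.9. The libraries listed at 0 are Control 17 and Acu 4, the libraries in which Hist1h2bc was highest. The other 2 Hist-named pseudogenes were at most 0.363 FPKM.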
